A study of Mus musculus with 12 samples.

Results

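Prostaglandins are lipid messengers made from arachidonic acid, and the genes described here encode 10 proteins that release that acid, turn it into prostaglandins, sense prostaglandin E2 or break prostaglandins down. They are a list of names, drawn up with earlier results of these data known: Pla2g4a, Ptgs1, Ptgs2, Ptges, Ptges2, Ptges3, Hpgds, Ptger4, Hpgd and Ptgr1, out of 25759 genes in the deposited table. All 10 passed the filter on low counts, which left 12805 genes for testing.

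RNA was sequenced from mouse gastric organoids, which are epithelial structures grown in a gel. The libraries form 4 groups of 3: organoids given Fusobacterium nucleatum, Helicobacter pylori or Neisseria subflava for 4 h, and organoids left untreated. Every group was grown in Matrigel (a basement membrane gel) and, from the first passage, kept on it in medium that had neither growth factors nor antibiotics. The study examined how bacteria change the transcripts of these organoids. The sources used here give no incubation time for the untreated organoids. They also give no strain, sex or age of the donor mice, no dose or strain of the bacteria, and no word on whether replicates were separate cultures or animals. P-values therefore measure only the spread between these libraries.

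In the pathway, a phospholipase frees arachidonic acid from membranes, cyclooxygenases turn it into prostaglandin H2, and terminal synthases turn that into prostaglandin E2, D2 and others. A dehydrogenase and a reductase then inactivate them in sequence. In the stomach, prostaglandin E2 is known for protecting the mucosa through mucus and bicarbonate secretion, blood flow and restraint of acid. Cyclooxygenase-1 is usually the constant enzyme and cyclooxygenase-2 the inducible one.

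Total counts were 16955155 to 23236260 per library, and mitochondrially encoded genes took 4.5% to 5.18% of them. All 13 markers of gastric epithelium on the list used were detected in every library, with summed levels of 26800 to 30700 TPM (a transcript level scaled for gene length and library sum). Of these markers 1 was higher and 9 were lower with Fusobacterium than in untreated organoids, 4 were higher and 5 lower with Helicobacter, and 4 were higher and 4 lower with Neisseria. Of all tested genes, 32.8% were higher and 32.4% lower with Fusobacterium, 10.5% and 8.36% with Helicobacter, and 25.4% and 25.5% with Neisseria. Transcripts of 9 pancreatic genes stood at 189 TPM in sum in Helicobacter replicate 1 and at 5.01 TPM or less in the other 8 bacterial libraries, against 279 to 381 TPM in the untreated libraries. The part of either marker list in the results that follow was not tested. Within the Helicobacter group, replicate 1 was the highest library for 6 of the 10 prostaglandin genes. The share of all genes highest in that library was not computed, so this count has no background. Without replicate 1, 4 of the 10 were called against untreated organoids. Over all tested genes, 1916 were called without it and 2419 with it.

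With Fusobacterium, 7 of the 10 prostaglandin genes were higher and 3 lower than in untreated organoids (edgeR's quasi-likelihood test, 2-sided, Benjamini-Hochberg adjusted p under 0.05 over all tested genes). Across all tested genes, 32.8% were higher and 32.4% lower in that comparison. With Helicobacter, 4 were higher, 1 was lower and 5 were not called, against 10.5% and 8.36% of all genes. With Neisseria, 5 were higher, 4 were lower and 1 was not called, against 25.4% and 25.5%. The median log2 fold change of the 10 genes was 0.32 with Fusobacterium, 0.09 with Helicobacter and 0.19 with Neisseria, and that of all tested genes was 0, 0 and -0.02 in the same order. All 10 also passed the test of any difference among the 4 groups, as did 80.8% of tested genes. The 3 comparisons share their untreated libraries. Hpgds passed the filter only through its level in the bacterial groups. Without it, 6 of 9 genes were higher and 3 lower with Fusobacterium, 3 higher and 1 lower with Helicobacter, and 4 higher and 4 lower with Neisseria, with median changes of 0.26, 0.09 and 0.05 in the same order.

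Directions rest on TMM scaling of the counts. Scaling by the library total alone moved the median log2 fold change of all genes by -0.17 in the Neisseria comparison, and limma on log2(TPM + 1) moved it by -0.20. With Helicobacter the moves were -0.06 and -0.10. Of all calls with Neisseria, 49.9% were higher with TMM, 26.9% with library totals and 22.9% with limma on TPM, and with Helicobacter the shares were 55.8%, 32.1% and 24.7%. None of the calls of the 10 genes turned its direction under these settings, but sizes moved. With limma on log2(TPM + 1), the Neisseria change was -0.39 for Ptgs1, -0.41 for Ptgr1, 0.12 for Ptges3 and 0.30 for Pla2g4a, and Ptgs2 was higher with Fusobacterium than with Neisseria by 0.52.

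**Figure D1:**
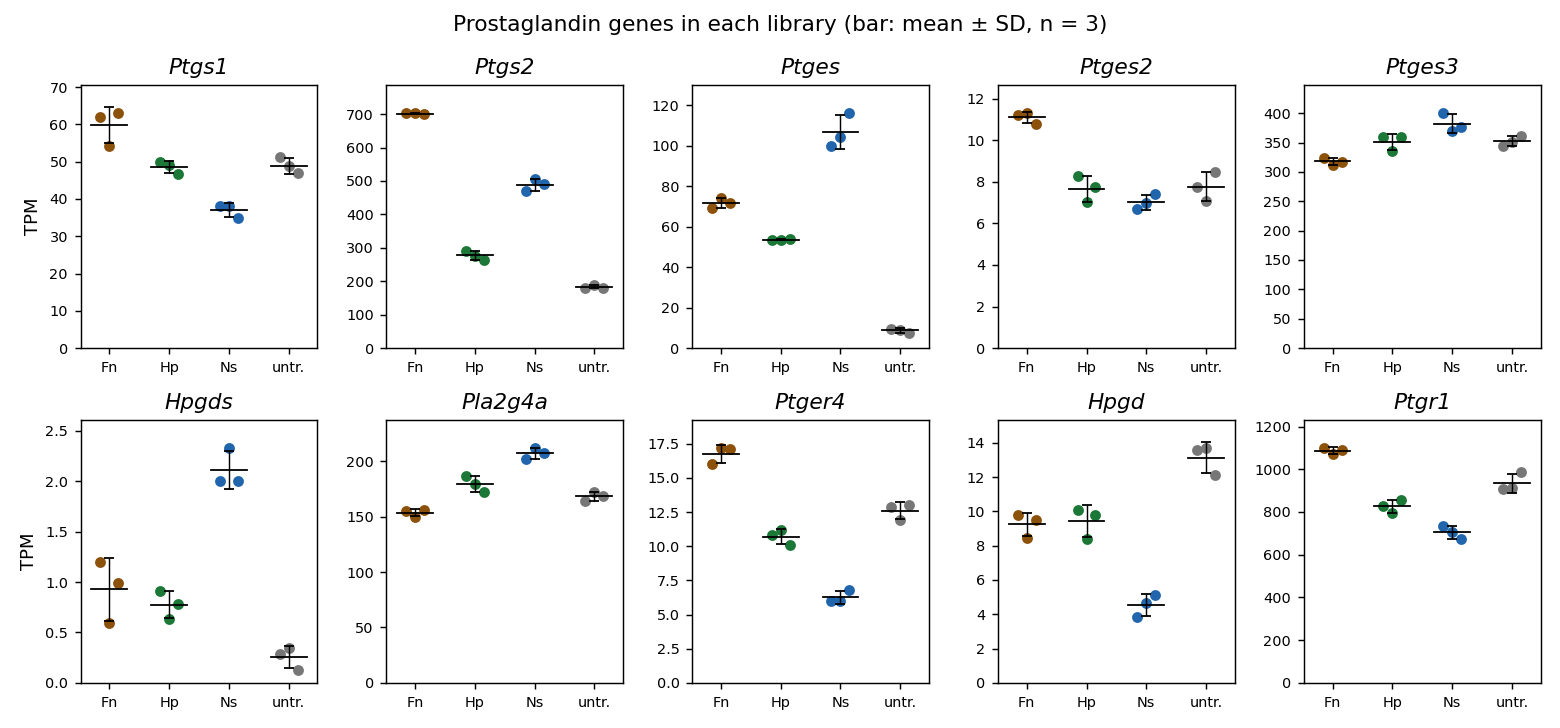
Level of each of the 10 prostaglandin genes in TPM (vertical axes, each from 0) in the Fusobacterium (Fn), Helicobacter (Hp), Neisseria (Ns) and untreated (untr.) libraries. Points are libraries, horizontal bars means and whiskers SD (n = 3); Ptgs2 and Ptges lie above all untreated libraries in each bacterial group, and Hpgd lies below them.

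**Figure D2:**
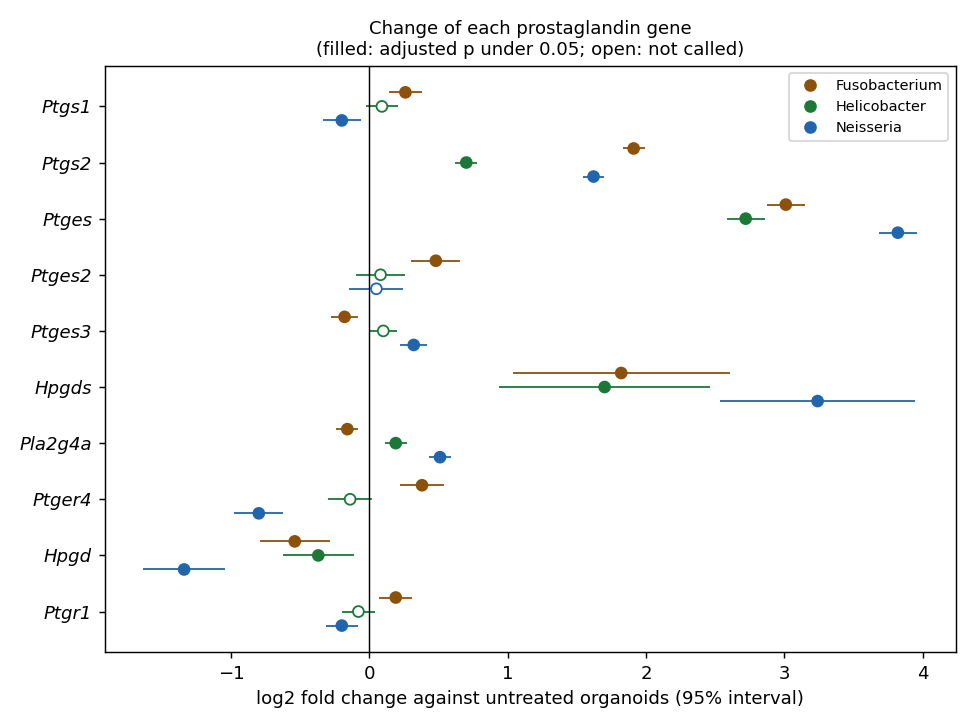
Log2 fold change of each gene against untreated organoids (horizontal axis) with its 95% interval, for Fusobacterium, Helicobacter and Neisseria from top to bottom within each gene. Filled points passed an adjusted p of 0.05 and open ones did not; Ptges reaches 3.82 and Hpgd -1.34, both with Neisseria.

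The gene for arachidonic acid release was slightly lower with Fusobacterium and slightly higher with Helicobacter and Neisseria. Pla2g4a encodes cytosolic phospholipase A2 alpha, which cuts arachidonic acid from membrane phospholipids (ENSMUSG00000056220, minus strand, chr1:149829618-149961290). It was at 155, 150 and 156 TPM with Fusobacterium, 187, 179 and 172 TPM with Helicobacter, 202, 212 and 207 TPM with Neisseria, and 164, 172 and 169 TPM in untreated organoids. Fusobacterium libraries were all below the untreated ones and Neisseria libraries all above, while the lowest Helicobacter library met the highest untreated one. The log2 fold change was -0.16 ± 0.04 with Fusobacterium (SE, adjusted p = 0.0019), 0.19 ± 0.04 with Helicobacter (adjusted p = 0.00225) and 0.51 ± 0.04 with Neisseria (adjusted p = 5.42e-10). The Helicobacter call was lost with limma on TPM, at a change of 0.09 and an adjusted p of 0.102 to 0.112 depending on the pseudocount. As RNA came from whole organoids, fewer cells that express a gene and less of its RNA per cell cannot be told apart, here or for any other gene.

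Of the cyclooxygenases, Ptgs2 was higher with every bacterium, and Ptgs1 had small changes that were called with Fusobacterium and Neisseria. Ptgs2 encodes cyclooxygenase-2 (ENSMUSG00000032487, plus strand, chr1:150100031-150108227). It was at 703, 702 and 699 TPM with Fusobacterium, 290, 277 and 265 TPM with Helicobacter, 470, 505 and 491 TPM with Neisseria, and 181, 188 and 180 TPM in untreated organoids. No group overlapped another, and the order was Fusobacterium, Neisseria, Helicobacter, untreated. The change was 1.91 ± 0.04 on the log2 scale with Fusobacterium, or 3.76-fold (adjusted p = 3.74e-21). It was 0.70 ± 0.04 with Helicobacter, or 1.63-fold (adjusted p = 2.2e-12), and 1.62 ± 0.04 with Neisseria, or 3.08-fold (adjusted p = 3.89e-20). Between bacteria, Ptgs2 was higher with Fusobacterium than with Helicobacter by 1.21 ± 0.04 (adjusted p = 2.22e-17), higher with Fusobacterium than with Neisseria by 0.29 ± 0.04 (adjusted p = 8.82e-07), and higher with Neisseria than with Helicobacter by 0.92 ± 0.04 (adjusted p = 4.32e-15).

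Ptgs1 encodes cyclooxygenase-1 (ENSMUSG00000047250, plus strand, chr2:36230426-36252272). It was at 62, 54.3 and 63 TPM with Fusobacterium, 50, 49 and 46.8 TPM with Helicobacter, 38.2, 38 and 35 TPM with Neisseria, and 51.2, 48.7 and 46.9 TPM in untreated organoids. Fusobacterium libraries lay above all untreated ones and Neisseria libraries below them, while Helicobacter overlapped them. The log2 fold change was 0.26 ± 0.06 with Fusobacterium (adjusted p = 0.00123) and -0.20 ± 0.07 with Neisseria (adjusted p = 0.0153). With Helicobacter it was 0.09 ± 0.06, with a 95% interval of -0.03 to 0.22 (adjusted p = 0.349). The Neisseria call was lost without Neisseria replicate 3 (adjusted p = 0.101) and without untreated replicate 1 (adjusted p = 0.0761). Its exons share 148 bases with Gm43621, an annotated transcript on the opposite strand that had 0 counts.

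Ptgs2 was the more abundant cyclooxygenase transcript in untreated organoids as well. Its share of the summed TPM of both genes was 92.1 ± 0.586% with Fusobacterium, 85.1 ± 0.173% with Helicobacter, 92.9 ± 0.404% with Neisseria and 78.9 ± 0.839% in untreated organoids (SD, n = 3 each). Summed cyclooxygenase levels were 761 ± 4.51 TPM with Fusobacterium, 326 ± 14 TPM with Helicobacter, 526 ± 17.5 TPM with Neisseria and 232 ± 4.51 TPM in untreated organoids. The Fusobacterium and Neisseria groups thus had Ptgs2 shares within 1 percentage point of each other at different summed levels.

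Ptges, the terminal synthase, had the largest change of the 10 genes in each comparison with untreated organoids. It encodes microsomal prostaglandin E synthase-1, the inducible enzyme that often acts beside cyclooxygenase-2 (ENSMUSG00000050737, minus strand, chr2:30889471-30929863). It was at 69, 74.2 and 71.8 TPM with Fusobacterium, 53.5, 53.5 and 53.7 TPM with Helicobacter, 100, 104 and 116 TPM with Neisseria, and 9.65, 8.97 and 7.47 TPM in untreated organoids. Every bacterial library was far above every untreated one, and the order among bacteria differed from that of Ptgs2, with Neisseria highest. The change was 3.01 ± 0.07 on the log2 scale with Fusobacterium, or 8.05-fold (adjusted p = 1.62e-20). It was 2.72 ± 0.07 with Helicobacter, or 6.59-fold (adjusted p = 2.65e-19), and 3.82 ± 0.07 with Neisseria, or 14.1-fold (adjusted p = 5.81e-23).

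The order of Ptges among bacteria was tested directly. Ptges was lower with Fusobacterium than with Neisseria, at a log2 fold change of -0.81 ± 0.06 (adjusted p = 1.18e-11), whereas Ptgs2 was higher with Fusobacterium. It was higher with Fusobacterium than with Helicobacter by 0.29 ± 0.06 (adjusted p = 1.28e-04) and higher with Neisseria than with Helicobacter by 1.10 ± 0.06 (adjusted p = 1.39e-13).

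The RefSeq promoters of Ptgs2 and Ptges (GRCm38.p6, 250 bases before to 50 after the start site, read along the gene's strand) are shown. Both genes were higher with all 3 bacteria, as was Hpgds, whose promoter is not shown. Capitals mark GCGTG, the core letters of the element bound by the aryl hydrocarbon receptor, and CACGTG, the E-box. The E-box letters hold ACGTG, a form of the core of the hypoxia response element, on both strands. None of these letters is particular to a single protein. Ptgs2 lies at chr1:150099781-150100080 on the plus strand, and Ptges at chr2:30903248-30903547 on the minus strand, where the RefSeq start falls inside the wider span of the deposited table.
Ptgs2: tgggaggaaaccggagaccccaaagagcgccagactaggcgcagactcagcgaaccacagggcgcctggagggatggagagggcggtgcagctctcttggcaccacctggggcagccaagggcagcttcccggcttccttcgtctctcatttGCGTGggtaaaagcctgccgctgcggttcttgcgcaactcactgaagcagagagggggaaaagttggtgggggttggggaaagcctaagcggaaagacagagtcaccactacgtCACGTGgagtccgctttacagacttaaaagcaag
Ptges: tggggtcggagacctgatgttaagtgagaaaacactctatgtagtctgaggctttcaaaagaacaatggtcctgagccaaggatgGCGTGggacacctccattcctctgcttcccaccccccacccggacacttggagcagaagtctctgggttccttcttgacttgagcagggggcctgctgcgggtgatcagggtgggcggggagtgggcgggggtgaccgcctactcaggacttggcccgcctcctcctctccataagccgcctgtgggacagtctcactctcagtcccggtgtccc

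In the Ptgs2 promoter GCGTG stands at -98 to -94 from the start and CACGTG at 17 to 22 after it, with 1 GGGCGG, the core of the GC box, at -170 to -165. The Ptges promoter has GCGTG at -165 to -161 and GGGCGG at -53 to -48 and at -42 to -37. Of 32851 promoters of this length in the table, 32.4% hold GCGTG on either strand, 7.15% hold CACGTG, 19.6% hold ACGTG and 35.7% hold GGGCGG on either strand. No match in either window was found for TATAAA (in 13.6% of promoters), the cyclic AMP element TGACGTCA (1.79%), the AP-1 element TGACTCA with its reverse complement TGAGTCA (5.2%) and the NF-kB motif (8.46%). Variants of these letters were not searched for, so the lack of a match does not mean that such an element is absent. Promoters were found for all 10 genes, 11 windows in all, and 6 of the 10 genes hold GCGTG in at least 1 window. The window of Hpgds, which was also higher with all bacteria, holds none of the motifs searched. That of Hpgd, which was lower with each bacterium, holds GCGTG on the opposite strand at -14 to -10. These matches only describe letters within a window.

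The other terminal synthases for prostaglandin E2 had smaller changes than Ptges. Ptges2 encodes a membrane-associated synthase (ENSMUSG00000026820, plus strand, chr2:32395896-32405772). It was at 11.2, 11.3 and 10.8 TPM with Fusobacterium, 8.27, 7.02 and 7.73 TPM with Helicobacter, 6.68, 6.98 and 7.39 TPM with Neisseria, and 7.76, 7.09 and 8.46 TPM in untreated organoids. Fusobacterium stood apart from the other groups, which overlapped. The log2 fold change was 0.48 ± 0.09 with Fusobacterium (adjusted p = 9.32e-05), while the 95% interval was -0.10 to 0.27 with Helicobacter and -0.14 to 0.24 with Neisseria. Ptges2 was also higher with Fusobacterium than with Helicobacter by 0.40 ± 0.09 (adjusted p = 6.29e-04) and than with Neisseria by 0.43 ± 0.09 (adjusted p = 3.38e-04). Neisseria and Helicobacter differed by -0.03, with a 95% interval of -0.22 to 0.16.

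Ptges3 encodes the cytosolic synthase, which is also the Hsp90 cochaperone p23 (ENSMUSG00000071072, plus strand, chr10:128058954-128077272). It was at 324, 312 and 317 TPM with Fusobacterium, 359, 335 and 359 TPM with Helicobacter, 400, 370 and 376 TPM with Neisseria, and 344, 351 and 361 TPM in untreated organoids. Fusobacterium libraries were all below and Neisseria libraries all above the untreated ones. On the log2 scale the change was -0.18 ± 0.05 with Fusobacterium (adjusted p = 0.00518) and 0.32 ± 0.05 with Neisseria (adjusted p = 2.56e-05). Both are uncertain to the extent that reads were shared with a processed pseudogene, Ptges3-ps, which is not among the genes of the deposited table. With Helicobacter the change was 0.10, with a 95% interval of -0.01 to 0.20 (adjusted p = 0.225). With library totals, which moved the median of all genes by -0.17, the Neisseria change was 0.16.

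Ptges made up a larger part of the 3 prostaglandin E synthases after each bacterium. Its share of their summed TPM was 17.9 ± 0.802% with Fusobacterium, 13 ± 0.436% with Helicobacter, 21.6 ± 1.75% with Neisseria and 2.36 ± 0.351% in untreated organoids. The sum was 400 ± 3.61 TPM with Fusobacterium, 412 ± 14.7 TPM with Helicobacter, 496 ± 13.5 TPM with Neisseria and 369 ± 7.64 TPM in untreated organoids (SD, n = 3 each). Ptges3 remained the most abundant of the 3 in all 4 groups.

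**Figure D3:**
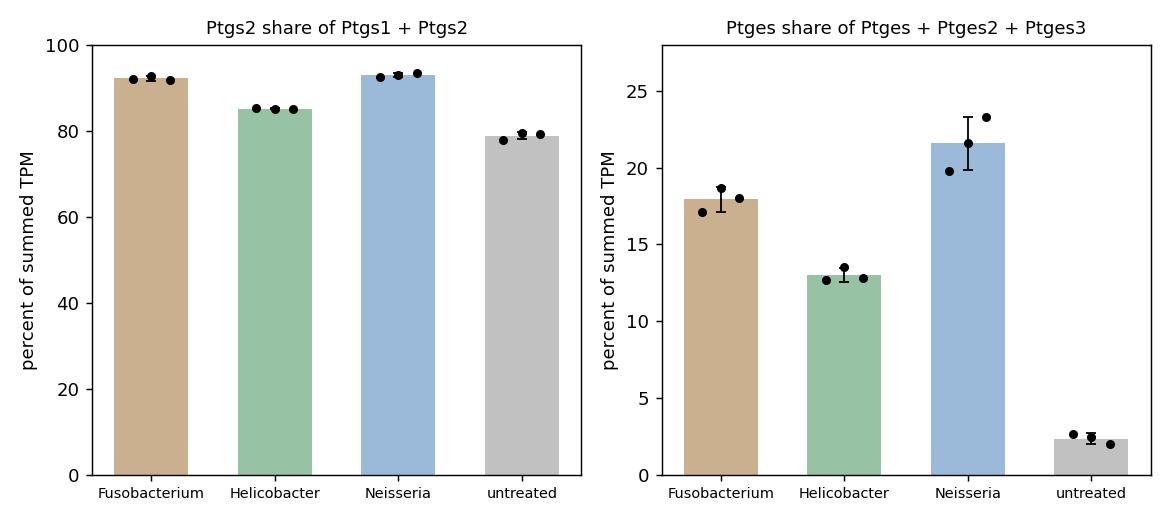
Left, Ptgs2 as a percent of the summed TPM of Ptgs1 and Ptgs2; right, Ptges as a percent of the summed TPM of Ptges, Ptges2 and Ptges3, in each group. Bars are means, points libraries and whiskers SD (n = 3); the Ptges share is 13% to 21.6% on average with bacteria and 2.36% in untreated organoids.

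Hpgds, the haematopoietic prostaglandin D synthase, was higher with every bacterium at a very low level (ENSMUSG00000029919, minus strand, chr6:65117293-65144908). In untreated organoids it lay under the filter's minimum, so it was tested only because of its level in the bacterial groups, and its test against untreated organoids is not independent of that. It had 33, 16 and 25 counts with Fusobacterium, 33, 20 and 24 with Helicobacter, 71, 70 and 59 with Neisseria, and 10, 9 and 4 in untreated organoids. Its mean level was 0.927 ± 0.31 TPM with Fusobacterium, 0.776 ± 0.136 TPM with Helicobacter, 2.11 ± 0.191 TPM with Neisseria and 0.256 ± 0.111 TPM in untreated organoids (SD, n = 3 each). Neisseria libraries lay above all others and untreated libraries below all others. The log2 fold change was 1.82 ± 0.40 with Fusobacterium (adjusted p = 3.18e-04), 1.70 ± 0.39 with Helicobacter (adjusted p = 0.00339) and 3.24 ± 0.36 with Neisseria (adjusted p = 6.08e-08). Without any filter on low counts the changes were 1.82 with Fusobacterium (adjusted p = 1.04e-04), 1.70 with Helicobacter (adjusted p = 0.00139) and 3.24 with Neisseria (adjusted p = 3.78e-11). Sizes depend on the scale at this level: with limma on log2(TPM + 1) they were 0.61 with Fusobacterium, 0.50 with Helicobacter and 1.31 with Neisseria. The Neisseria group was also higher than Helicobacter by 1.53 ± 0.30 (adjusted p = 2.48e-04), and Fusobacterium was lower than Neisseria, at -1.42 ± 0.30 (adjusted p = 2.37e-04). Fusobacterium and Helicobacter differed by 0.12 with a 95% interval of -0.53 to 0.76.

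Hpgds is known from mast cells, other leukocytes and tuft cells, so the markers of those cells are given beside it. Of 7 leukocyte markers, 6 were matched by name, and their summed level was 41 to 44.4 TPM with Fusobacterium, 23.3 to 24.3 with Helicobacter, 29 to 30.8 with Neisseria and 22.3 to 26.4 in untreated organoids. Nearly all of it was Cd68, a lysosomal protein, at 40.2 to 43.1 TPM with Fusobacterium. Cd3e had at most 3 counts and Adgre1 at most 1 in a library, and Ptprc had 7 to 30 counts with Fusobacterium, 10 to 20 with Helicobacter, 19 to 45 with Neisseria and 5 to 12 in untreated organoids. Cd68 and Ptprc, the 2 that were tested, were both higher with Fusobacterium and with Neisseria and not called with Helicobacter. With 5 to 12 counts in untreated organoids, Ptprc passed the filter only through its level in the bacterial groups. Its tests against untreated organoids are not independent of that. Of 4 mast cell markers, Fcer1a was at 0 in every library and Cpa3 had at most 2 counts, with summed levels of 41.5 to 51.7 TPM with Fusobacterium, 52.2 to 57.3 with Helicobacter, 43.5 to 44.7 with Neisseria and 46.3 to 52.3 in untreated organoids. Nearly all of this sum was Mcpt2, at 38.9 to 48.3 TPM with Fusobacterium. Of the tested pair, Kit was higher with Neisseria (0.79 ± 0.16, adjusted p = 1.80e-04) and Mcpt2 with Helicobacter (0.29 ± 0.09, adjusted p = 0.0232). Of 7 tuft cell markers, Avil held nearly all of a sum of 103 to 109 TPM with Fusobacterium, 106 to 119 with Helicobacter, 116 to 124 with Neisseria and 109 to 112 in untreated organoids, while Pou2f3 had at most 4 counts. Among the 3 tested tuft cell markers, Trpm5 was higher with Fusobacterium (1.38 ± 0.47, adjusted p = 0.0136), Avil with Helicobacter (0.13 ± 0.04) and Neisseria (0.32 ± 0.04), and Dclk1 with Neisseria (0.37 ± 0.15), and none was called lower. Trpm5 had 12 to 21 counts with Fusobacterium and 6 to 11 in untreated organoids, where it lay under the filter's minimum. Like Hpgds, it was tested only because of its level in the bacterial groups. The part of these cell types in the Hpgds result was not tested.

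The receptor gene Ptger4 moved in opposite directions with Fusobacterium and Neisseria. It encodes EP4, a receptor for prostaglandin E2 that raises cyclic AMP (ENSMUSG00000039942, minus strand, chr15:5206661-5244187). It was at 16, 17.2 and 17.1 TPM with Fusobacterium, 10.8, 11.2 and 10.1 TPM with Helicobacter, 5.97, 6.02 and 6.80 TPM with Neisseria, and 12.9, 11.9 and 13.0 TPM in untreated organoids. The 4 groups did not overlap in TPM. Its log2 fold change was 0.38 ± 0.08 with Fusobacterium (adjusted p = 3.32e-04) and -0.80 ± 0.09 with Neisseria (adjusted p = 7.58e-08). With Helicobacter it was -0.14, with a 95% interval of -0.30 to 0.03 (adjusted p = 0.282). Fusobacterium was above Neisseria by 1.18 ± 0.09 (adjusted p = 4.72e-11) and above Helicobacter by 0.52 ± 0.08 (adjusted p = 1.01e-05), and Neisseria was below Helicobacter, at -0.67 ± 0.09 (adjusted p = 2.39e-06).

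Exons of Ptger4 share 82 bases with Ttc33 on the opposite strand and 1015 bases with the pseudogene Gm15937, and whether the counting used strand is not given in the sources used here. Gm15937 is not among the genes of the deposited table. Ttc33 passed the threshold in none of the 6 comparisons by edgeR, with adjusted p of 0.0716 to 0.968. Of 8 other prostanoid receptors, only Ptger1, the EP1 receptor, passed the filter, at 11 to 34 counts in each library, and it was not called in any comparison with untreated organoids. Ptger2 and Ptgdr, the EP2 and D prostanoid receptors, had 0 counts in each of the 12 libraries. A count of 0 allows up to 3 counts per library, for counting error only.

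Of the breakdown genes, Hpgd was lower with each bacterium. It encodes the dehydrogenase that carries out the first step of prostaglandin inactivation (ENSMUSG00000031613, plus strand, chr8:56294585-56321043). It was at 9.78, 8.47 and 9.47 TPM with Fusobacterium, 10.1, 8.4 and 9.8 TPM with Helicobacter, 3.83, 4.67 and 5.11 TPM with Neisseria, and 13.6, 13.7 and 12.1 TPM in untreated organoids. All treated libraries were below all untreated ones, the Neisseria libraries were below all others, and the Fusobacterium and Helicobacter libraries overlapped. The log2 fold change was -0.54 ± 0.13 with Fusobacterium (adjusted p = 0.00126), -0.37 ± 0.13 with Helicobacter (adjusted p = 0.049) and -1.34 ± 0.15 with Neisseria (adjusted p = 4.69e-08), the last a 2.52-fold lower level.

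The Helicobacter call of Hpgd was marginal: it was lost in 16 of 24 alternative analyses, where the adjusted p was 0.0507 to 0.176. These include leaving out any single library other than Neisseria replicate 1. Hpgd had 66 to 227 counts per library. Neisseria libraries were below Helicobacter libraries, at -0.96 ± 0.15 (adjusted p = 1.43e-05), and Fusobacterium libraries were above Neisseria libraries by 0.80 ± 0.15 (adjusted p = 7.14e-05). Fusobacterium and Helicobacter differed by -0.17, with a 95% interval of -0.44 to 0.11.

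Ptgr1 encodes a reductase that takes the next step of inactivation and also inactivates leukotriene B4 (ENSMUSG00000028378, minus strand, chr4:58965439-58987119). It was the most abundant of the 10 transcripts, at 1100, 1070 and 1090 TPM with Fusobacterium, 826, 796 and 857 TPM with Helicobacter, 733, 707 and 672 TPM with Neisseria, and 907, 910 and 985 TPM in untreated organoids. The groups did not overlap in TPM. On the log2 scale it changed by 0.19 ± 0.06 with Fusobacterium (adjusted p = 0.00848) and -0.20 ± 0.06 with Neisseria (adjusted p = 0.00633). With Helicobacter it was -0.08, with a 95% interval of -0.19 to 0.04 (adjusted p = 0.389), but limma on TPM called it at -0.18 (adjusted p = 0.00806 to 0.00854). Ptgr1 was higher with Fusobacterium than with Helicobacter by 0.26 ± 0.06 (adjusted p = 5.76e-04) and than with Neisseria by 0.39 ± 0.06 (adjusted p = 8.21e-06). Neisseria against Helicobacter gave -0.13 ± 0.06 (adjusted p = 0.093). With Fusobacterium, the breakdown genes thus moved in opposite directions, Hpgd lower and Ptgr1 higher.

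Set side by side, 6 of the 10 genes were higher and 2 lower with Fusobacterium than with Helicobacter, against 31.8% and 33.5% of all tested genes. Fusobacterium against Neisseria gave 6 higher and 4 lower, against 32.5% and 34.1%, and Neisseria against Helicobacter gave 5 higher and 3 lower, against 19% and 17.7%. Without Hpgds these counts were 6 and 2, 6 and 3, and 4 and 3 of 9 genes. Ptgs1, Ptgs2, Ptges2, Ptger4, Hpgd and Ptgr1 were the genes higher with Fusobacterium than with Neisseria. Ptges, Ptges3, Hpgds and Pla2g4a were the ones lower with Fusobacterium than with Neisseria. The largest of these differences in size were Hpgds at -1.42 ± 0.30, Ptger4 at 1.18 ± 0.09 and Ptges at -0.81 ± 0.06.

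Among the smaller differences, Ptgs1 stood at 0.17 ± 0.06 for Fusobacterium against Helicobacter (adjusted p = 0.0264), 0.45 ± 0.06 for Fusobacterium against Neisseria (adjusted p = 1.81e-06) and -0.29 ± 0.06 for Neisseria against Helicobacter (adjusted p = 0.00118). The first of these was lost in 5 alternative analyses, at an adjusted p of 0.0538 to 0.125: without Fusobacterium replicate 1 or 3, without Helicobacter replicate 2 or 3, and with the 10 libraries that have L1 in their column names. Pla2g4a was lower with Fusobacterium than with Helicobacter, at -0.35 ± 0.04 (adjusted p = 1.4e-07), and than with Neisseria, at -0.67 ± 0.04 (adjusted p = 2.53e-12). Ptges3 followed the same order, at -0.28 ± 0.05 (adjusted p = 1.04e-04) and -0.51 ± 0.05 (adjusted p = 2.82e-08). Neisseria was above Helicobacter by 0.31 ± 0.04 for Pla2g4a (adjusted p = 2.03e-06) and by 0.23 ± 0.05 for Ptges3 (adjusted p = 0.0017).

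Over the 12 libraries, the 10 genes fell into patterns that reflect the 4 groups, so each correlation rests mainly on 4 group levels and is given as a description. On log2 CPM with TMM scaling (counts scaled to library size), Ptges had a Pearson r of 0.86 with Ptgs2, 0.92 with Hpgds and -0.82 with Hpgd. Pla2g4a had an r of 0.95 with Ptges3 and of -0.97 with Ptger4, but of 0.11 with Ptgs2. Pla2g4a and Ptgs2 lie 138740 bases apart on chromosome 1, with 3 annotated genes between them.

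Among 10066 tested genes with a mean of at least 5 TPM in the highest group, those most like Ptgs2 over the 12 libraries were Dusp1, a phosphatase of MAP kinases (r = 0.997), the immediate early gene Ier3 (r = 0.996) and Mpp2 (r = 0.995). Dusp1 averaged 205 TPM with Fusobacterium, 83.8 with Helicobacter, 154 with Neisseria and 59 in untreated organoids. Those most like Ptges were Ppp1r3b, a glycogen-targeting phosphatase subunit (r = 0.998), the nucleotidase gene Nt5c2 (r = 0.994) and Slc2a1, the glucose transporter GLUT1 (r = 0.989). Slc2a1 averaged 251 TPM with Fusobacterium, 177 with Helicobacter, 316 with Neisseria and 75.6 in untreated organoids. Nt5c2 averaged 114 TPM with Fusobacterium, 104 with Helicobacter, 107 with Neisseria and 86.1 in untreated organoids. As these genes were picked for their correlation with Ptges, a like order of the groups is no separate result. Those most like Hpgd were Glce, an epimerase of heparan sulfate synthesis (r = 0.974), Enc1 (r = 0.972) and Incenp, a subunit of the chromosomal passenger complex (r = 0.97). Enc1 averaged 52.1 TPM with Fusobacterium, 52.1 with Helicobacter, 26.7 with Neisseria and 75.5 in untreated organoids.

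Of 44 further genes of eicosanoid metabolism on the lists used, 25 passed the filter. Fusobacterium organoids had 12 of them higher, 7 lower and 6 not called, Helicobacter organoids 1 higher and 1 lower, and Neisseria organoids 3 higher and 8 lower. All tested genes gave 32.8% higher and 32.4% lower with Fusobacterium, 10.5% and 8.36% with Helicobacter, and 25.4% and 25.5% with Neisseria, and these hold for each list that follows. The median log2 fold change of the 25 genes was 0.17 with Fusobacterium, -0.02 with Helicobacter and -0.04 with Neisseria. The alternative settings were applied gene by gene to the 10 prostaglandin genes only. How far the calls and sizes of these 25 rest on TMM scaling was not tested.

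Among 7 tested phospholipase and lipase genes, 3 were higher and 4 lower with Fusobacterium, 1 and 1 with Helicobacter, and 2 and 5 with Neisseria. Pla2g4c, another cytosolic phospholipase A2, averaged 4.09 ± 0.0632 TPM with Fusobacterium, 4.52 ± 0.959 with Helicobacter, 4.69 ± 0.65 with Neisseria and 8.18 ± 0.622 in untreated organoids (SD, n = 3 each), with log2 fold changes of -1.03, -0.76 and -0.60 in the order of the bacteria, all of which passed. Daglb, a diacylglycerol lipase, was higher with Fusobacterium by 0.98 ± 0.12 (adjusted p = 1.33e-07) and lower with Neisseria, at -0.65 ± 0.13 (adjusted p = 2.56e-04). Anxa1, annexin A1, an inhibitor of phospholipase A2, was higher with Fusobacterium (0.36 ± 0.05), Helicobacter (0.18 ± 0.05) and Neisseria (0.49 ± 0.05). Its Helicobacter libraries, at 1450, 1350 and 1470 TPM, overlapped the untreated ones, at 1310, 1350 and 1390 TPM. Pla2g12a was higher with Fusobacterium (0.38 ± 0.11) and Neisseria (0.48 ± 0.10). The list of genes that return arachidonic acid to membranes had 3 of 3 higher with Fusobacterium, against 32.8% of all tested genes, and 0 of 3 called with Helicobacter. With Fusobacterium the changes were Acsl3 at 0.84 ± 0.05, Acsl4 at 0.68 ± 0.04 and Lpcat3 at 0.50 ± 0.05. With Neisseria Acsl4 was higher by 0.57 ± 0.04, Lpcat3 was lower at -0.30 ± 0.05 and Acsl3 was not called.

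Downstream, Abcc4, an exporter of prostaglandins, averaged 103 ± 2.87 TPM with Fusobacterium, 45 ± 4.97 with Helicobacter, 47.4 ± 4.34 with Neisseria and 51.3 ± 1.87 in untreated organoids. Its log2 fold change was 0.97 ± 0.05 with Fusobacterium (adjusted p = 1.42e-13), and it was not called with Helicobacter (adjusted p = 0.248) or Neisseria (adjusted p = 0.18). Directly compared, it was higher with Fusobacterium than with Helicobacter by 1.07 ± 0.05 and than with Neisseria by 0.89 ± 0.05. Of the other prostanoid synthases, Akr1b3 and Fam213b, which can make prostaglandin F2 alpha, were higher with Fusobacterium by 0.44 ± 0.05 and 0.86 ± 0.29, and Cbr1, a carbonyl reductase, was lower with Fusobacterium (-0.15 ± 0.05) and Neisseria (-0.35 ± 0.05). The prostaglandin reductases Ptgr2 and Zadh2 were lower with Fusobacterium, at -0.38 ± 0.05 and -0.20 ± 0.07. Of 6 tested lipoxygenase and leukotriene genes, 3 were higher and 0 lower with Fusobacterium, and 0 were called with Helicobacter or Neisseria. Ltc4s, leukotriene C4 synthase, was higher with Fusobacterium by 1.01 ± 0.36 (adjusted p = 0.0184). It had 38 to 49 counts per library against 7 to 35 in untreated organoids. Lta4h was higher by 0.17 ± 0.05. Alox12, a lipoxygenase gene below 5 TPM in every group, averaged 3.32 TPM with Fusobacterium, 0.512 with Helicobacter, 0.664 with Neisseria and 0.827 in untreated organoids.

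**Figure D4:**
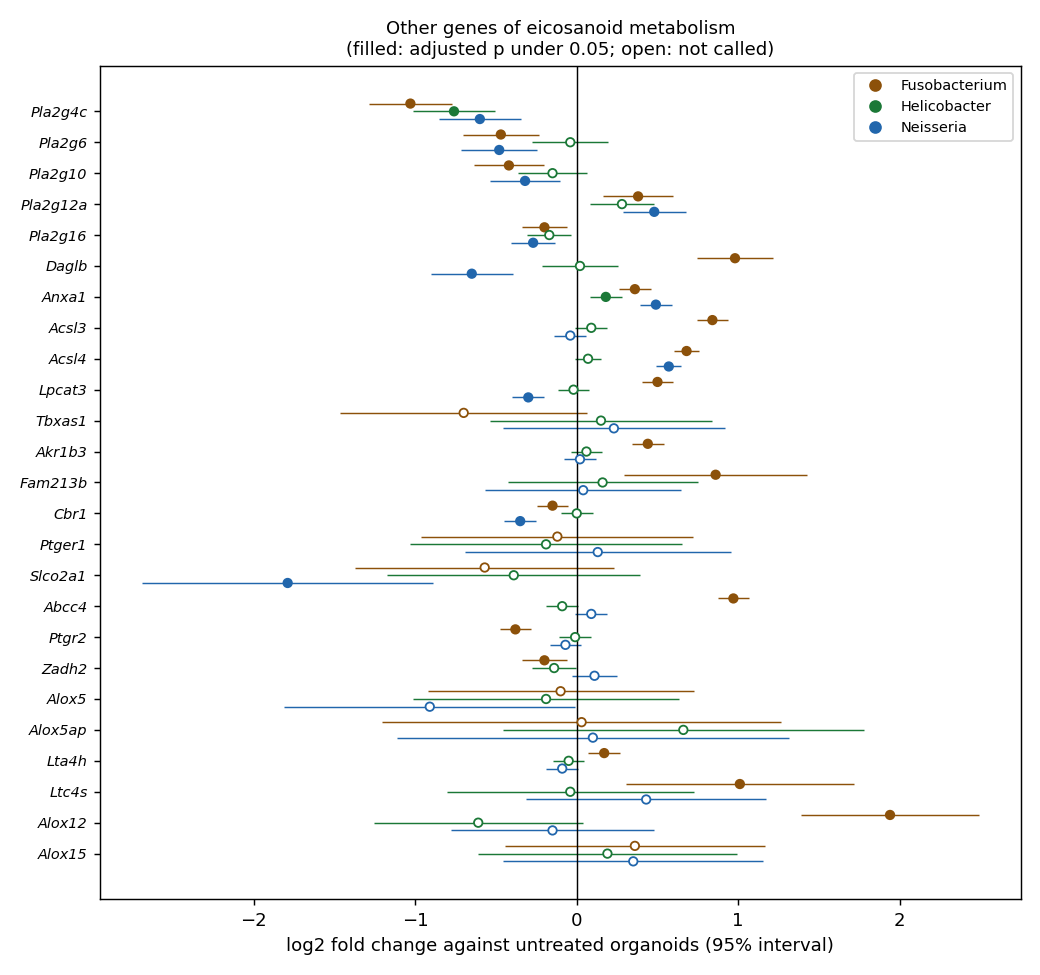
Log2 fold change against untreated organoids (horizontal axis) with 95% intervals for the 25 tested genes of the other eicosanoid lists, with Fusobacterium, Helicobacter and Neisseria from top to bottom within each gene. Filled points passed an adjusted p of 0.05; 19 points pass with Fusobacterium, 2 with Helicobacter and 11 with Neisseria.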

How the data were processed

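The deposited table holds, for each gene and library, counts that the authors made from paired reads; the headers and the values, all whole, give them as unnormalized. It also holds TPM values, which the authors scaled for gene length to a common library sum, per the file headers. The submitters' processing notes name the build GRCm38; the aligner, the counting method and its use of strand are not given in the sources used here. Another 24 columns (RPKM and CPM) were not used.

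The counts were tested with edgeR 4.0.16 in R 4.3.3 (default filter on low counts, TMM scaling, robust quasi-likelihood fits). All 12 libraries entered 1 model with a coefficient per group. Tests were two-sided, p-values were adjusted by Benjamini-Hochberg over 12805 genes, which hold 99.96% of counts, and the threshold was 0.05. Fold changes are log2 with SE, the size divided by the square root of F, and 95% intervals are 1.96 SE to either side. The common coefficient of biological variation was 5.71%, and replicates differed by more than counting noise (chi-square of 2.26 to 11 per degree of freedom). Each library was kept as a separate replicate. This spread does not show whether the replicates were separate cultures or animals. The script was tested on simulated data.

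The 10 genes and all lists were chosen with earlier results of these data known. From the other lists, up to 4 genes each are named by the largest absolute change among those called against untreated organoids and reaching a mean of 5 TPM. Ptger1, Ptger2, Ptgdr, Alox12 and the cell type markers are named as descriptions. Alternatives used limma 3.58.1 on log2(TPM + 0.1, 1 or 5), DESeq2 1.42.0, other scalings and filters, only the groups compared, a replicate block and leaving out each library. After the data were seen, the marks L0 and L1 in the column names were used as a filter and as a term. Replicate numbers are shared between groups in the labels. Of 18 same-numbered pairs, 0 had deviations that correlated above 0.1, with a range of -0.0959 to 0.0919. The highest was between Helicobacter and untreated replicate 3, both marked L0. With 3 libraries per group and counting noise, the check cannot exclude a batch shared by same-numbered libraries. Gene positions were those of the table and matched GENCODE M21 for all 10 genes.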

Additional observations from a re-analysis of the deposited data

How the results depend on the processing

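Of 60 changes of the 10 prostaglandin genes (6 comparisons), 53 kept their side of the threshold in all 24 alternatives, and none turned a called direction. In 1440 recomputed values, 26 calls were lost and 10 gained. Sizes were less stable: 60 called values moved by over 1.5 times, 54 with limma on TPM and 6 with library totals. Hpgds ranged over 0.17 to 2.06 with Fusobacterium and 0.44 to 3.46 with Neisseria, lowest at a pseudocount of 5 TPM, and Ptges over 3.03 to 3.90 with Neisseria. Besides those given with each gene, Ptges3 was called with Helicobacter without Helicobacter replicate 2 (0.15, adjusted p = 0.0226), and Ptgr1 was called lower with Neisseria than with Helicobacter in 6 alternatives. The number of the 10 genes called stayed at 10 with Fusobacterium, and ranged over 4 to 5 with Helicobacter, 8 to 9 with Neisseria, 7 to 8 for Fusobacterium against Helicobacter, 10 for Fusobacterium against Neisseria and 8 to 9 for Neisseria against Helicobacter. Of all 12805 tested genes, the main fit called 8356, 2419, 6511, 8361, 8527 and 4704 in the same order.

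Over all genes, 2419 were called with Helicobacter against untreated organoids, and leaving out 1 library gave 1594 to 3136, with 1594 without untreated replicate 1 and 1596 without untreated replicate 2. Of all calls between Fusobacterium and Neisseria, 48.7% were higher with TMM, 65.9% with library totals and 70.9% with limma on log2(TPM + 1). For Neisseria against Helicobacter the shares were 51.8%, 28.5% and 29.3%, and for Fusobacterium against Helicobacter they were 48.7% with TMM and 63% with limma.

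With the replicate number as a block, 10 of the 10 genes were called with Fusobacterium, 4 with Helicobacter and 9 with Neisseria. The main fit without the block called 8356, 2419 and 6511 of all 12805 tested genes in the same order. The pairing check found that 5 of 12 libraries correlated best with their own number. Depth limits Hpgds, at 4 to 71 counts per library.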
